A study of Rattus norvegicus with 4 samples.

Results

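The Slc17 and Slc22 families hold carriers that move organic anions, organic cations, carnitine, phosphate and urate across the membranes of the kidney's proximal tubule. The members were 9 genes of these families, Slc17a1, Slc17a3, Slc22a2, Slc22a5, Slc22a6, Slc22a7, Slc22a8, Slc22a12 and Slc22a13, and the rule took every probe set that the platform annotation assigns to one of them. It gave 8 probe sets, 1 for each of 8 genes among the 10411 genes named on the array, out of the 15866 probe sets of the array that are no controls. The annotation used here assigned no probe set to Slc22a12, and that gene was not analysed here.

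Kidney RNA of male rats aged 9 weeks was measured on 4 arrays. Rats of the SHR strain had been exposed before birth to nicotine or to saline, and rats of the BN strain likewise, which gives 1 array for each strain and treatment. SHR is the spontaneously hypertensive rat, an inbred strain with inherited high blood pressure, and BN is the Brown Norway rat, an inbred strain with normal blood pressure. Each array carried pooled RNA, from 13 animals for SHR with nicotine and from 12 animals for every other combination, so animals of a group were not measured apart. Values are signal intensities made with MAS5, per the submitters' processing notes, on a linear scale whose level cannot be compared between probe sets.

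The proximal tubule clears the blood of drugs, toxins and metabolic end products in steps. Carriers of the basolateral membrane, which faces the blood, take up organic anions and cations, and carriers of the apical brush border release them into the urine or take urate, carnitine and phosphate back. Several of these genes lie next to relatives in gene clusters.

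The kidney origin of the RNA was checked on fixed marker lists. All 21 probe sets of 18 proximal tubule marker genes reached the level required for testing between strains, and their summed signal was 52710.5 and 52614.5 in the SHR pools and 47194 and 47416 in the BN pools. Of these 21, 8 were higher and 3 lower in SHR, where 8.67% and 9.42% of all tested probe sets were. The tubule markers thus leaned higher in SHR without moving as a block. The podocyte list had 3 of 10 probe sets tested, 1 lower in SHR, with sums of 1012 and 1019 in SHR and 1109.9 and 1168 in BN. Of 10 immune cell probe sets 3 were tested and 2 were higher in SHR, with sums of 4121 and 3534 in SHR and 2896 and 2636 in BN, and the leukocyte gene Ptprc stayed below the floor on all 4 arrays. Most of these sums came from Cd74 (1706 and 1388 in SHR, 1365 and 1298 in BN) and Lyz2 (1742 and 1507 in SHR, 1044 and 869 in BN). A sum of signals follows the brightest probe sets of its list and is no measure of cell number. No liver marker probe set was tested, with sums from 203 to 227 in SHR and from 195 to 217 in BN. The 3' over 5' signal ratio of beta-actin, which reflects how intact the RNA was, came to 1.34 and 1.39 in SHR and 1.49 and 1.54 in BN. The same ratio for the control gene Gapdh did not separate the strains, since both BN pools lay between the SHR pools. A strain difference in this ratio was thus seen with beta-actin only. The part of these shifts in the strain differences below was not tested, and in whole-kidney RNA fewer tubule cells and less RNA per cell cannot be told apart.

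**Figure D1:**
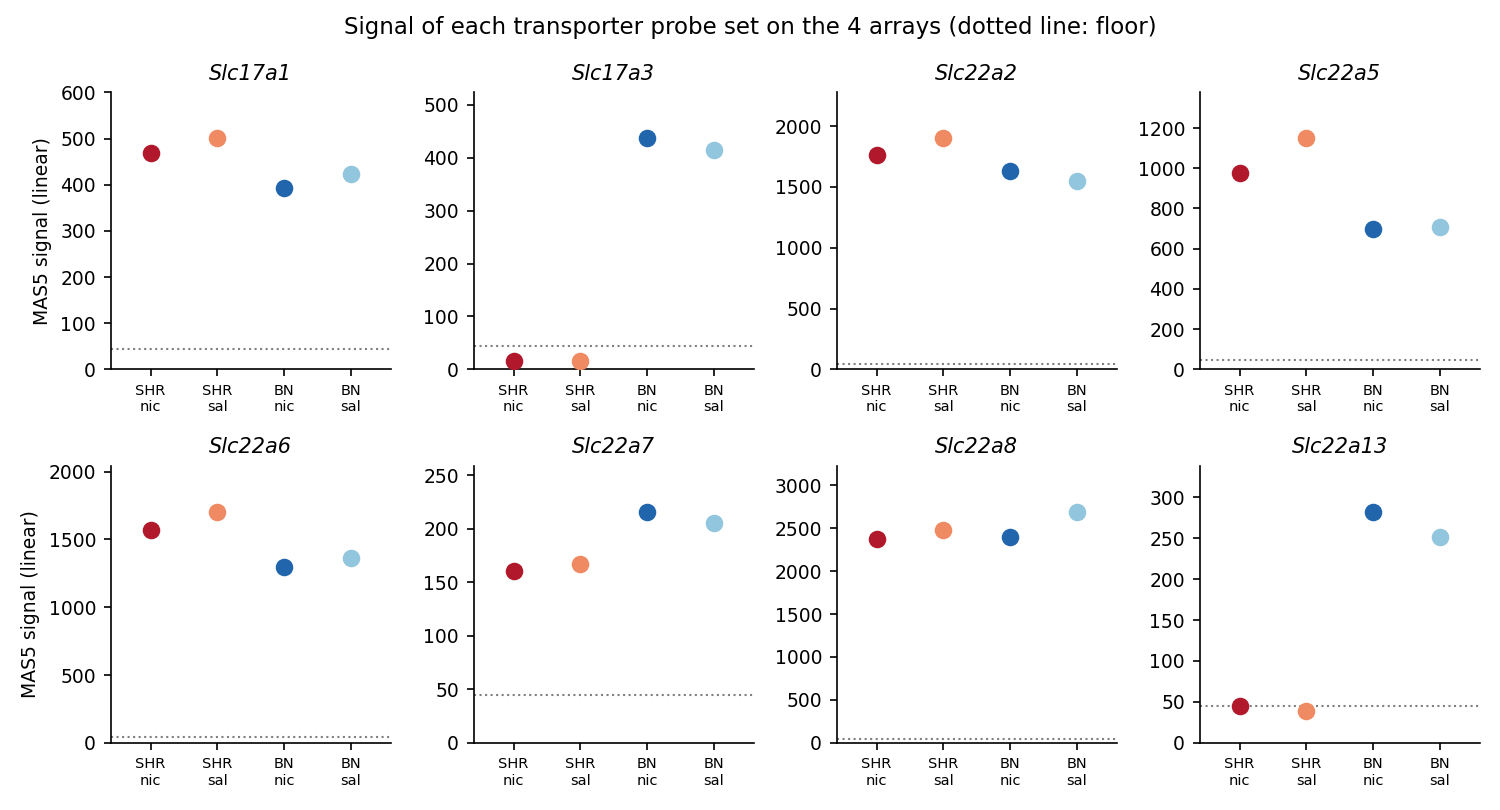
MAS5 signal on a linear axis for the 8 transporter probe sets, 1 panel each, with 1 point per pooled array, the 2 SHR pools on the left and the 2 BN pools on the right, nicotine before saline in each; the dotted line is the floor of 44.5. Slc17a3 and Slc22a13 lie below the floor in both SHR pools and far above it in both BN pools, while Slc22a8 overlaps between the strains.

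The strains were compared first, averaged over the treatments. Of the 8 probe sets, 7 differed between SHR and BN in the limma test over all 7037 probe sets that were bright enough, 4 of them higher and 3 lower in SHR. Over all tested probe sets 18.1% passed, 8.67% higher and 9.42% lower in SHR. Slc17a3 and Slc22a13 entered the test through BN alone and had to differ, so the count over members says little about the family. The members' median log2 ratio was 0.07, against 0.00 over all tested probe sets, and the single ratios ran from -3.26 to 0.59. The signals of the SHR pools and of the BN pools did not overlap for 7 of the 8 probe sets, where 59.8% of all tested probe sets showed no overlap. Without overlap, 4 were higher and 3 lower in SHR, against 30.8% and 28.9% of all tested probe sets.

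Among the carriers of phosphate and urate, Slc17a3 and Slc22a13 read below the floor in SHR and well above it in BN. Slc17a3 encodes the type 4 sodium phosphate transporter NPT4, which in humans is an apical exit path for urate and organic anions. Its signal was 15.4 and 16.5 in the SHR nicotine and SHR saline pools, against 437 and 414 in the BN nicotine and BN saline pools. Both SHR signals lay below the floor of 44.5, the 40th percentile of all signals, below which values were raised to the floor before taking log2. The signal of Slc17a3 was therefore at least 9.56-fold lower in SHR, a log2 ratio of -3.26 on floored values. Its limma adjusted p of 5.92e-12 was computed on those floored values for a probe set that entered the test through BN, and it adds no support to the signals themselves. Whether SHR differs from BN in sequence under the probes was not tested, for Slc17a3 or for Slc22a13, so the bounds are of array signal and need not be bounds of transcript level. The bound was at least 9.81-fold between the nicotine pools and at least 9.31-fold between the saline pools.

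Slc22a13 encodes OAT10, an exchanger of nicotinate and urate. It read 44.4 and 38.5 in the SHR nicotine and SHR saline pools, against 282 and 251 in the BN nicotine and BN saline pools. Both SHR pools were again below the floor, the nicotine pool by a narrow margin, and neither BN pool came near it. Its signal was at least 5.98-fold lower in SHR, a log2 ratio of -2.58 on floored values, with a limma adjusted p of 9.26e-10 that has the same limit as that of Slc17a3. The bound was at least 6.34-fold between the nicotine pools and at least 5.65-fold between the saline pools.

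Slc17a1, which encodes the type 1 sodium phosphate transporter NPT1 of the brush border, also a carrier of urate, went the other way. Its signal was 468 and 501 in the SHR nicotine and SHR saline pools, against 393 and 423 in the BN nicotine and BN saline pools. It was 1.19-fold higher in SHR (log2 ratio 0.25, SE 0.08, adjusted p = 0.0459 with limma). The ratio was nearly equal under the treatments, at 0.25 between the nicotine pools and 0.24 between the saline pools, yet its adjusted p lay just under the threshold of 0.05.

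The promoters of these 3 genes are shown because Slc17a1 and Slc17a3 are neighbours that differed in opposite directions and Slc22a13 shared the low SHR signal of Slc17a3. Each runs from 250 bases before to 50 bases after the annotated start, from RefSeq on the GRCr8 assembly, which is the genome of a BN rat; SHR sequence was not used here. Capitals mark matches to AGGTCA (one arm of the sites of nuclear receptors such as HNF4) or TATAAA (one form of the TATA box). Each was searched as these exact letters on both strands.
Slc17a3, chr17:41723060-41723359, minus strand: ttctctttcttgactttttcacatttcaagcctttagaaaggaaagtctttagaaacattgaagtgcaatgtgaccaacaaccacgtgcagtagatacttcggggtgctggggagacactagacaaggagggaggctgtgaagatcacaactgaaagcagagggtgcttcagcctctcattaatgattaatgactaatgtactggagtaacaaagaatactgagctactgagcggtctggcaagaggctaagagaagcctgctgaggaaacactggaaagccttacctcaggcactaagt
Slc17a1, chr17:41681125-41681424, minus strand: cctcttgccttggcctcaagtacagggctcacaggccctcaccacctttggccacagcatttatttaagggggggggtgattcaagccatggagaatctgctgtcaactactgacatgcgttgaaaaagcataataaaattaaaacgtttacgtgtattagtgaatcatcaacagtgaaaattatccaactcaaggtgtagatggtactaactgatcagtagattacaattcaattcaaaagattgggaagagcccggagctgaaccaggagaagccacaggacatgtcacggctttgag
Slc22a13, chr8:127811701-127812000, minus strand: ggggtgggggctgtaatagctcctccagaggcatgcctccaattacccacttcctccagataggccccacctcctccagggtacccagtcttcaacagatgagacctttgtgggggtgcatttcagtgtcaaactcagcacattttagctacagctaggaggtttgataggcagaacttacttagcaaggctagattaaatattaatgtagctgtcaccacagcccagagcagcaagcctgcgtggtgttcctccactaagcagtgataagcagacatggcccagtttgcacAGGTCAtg
The Slc22a13 window held 1 AGGTCA, 42 bases after the start, a motif in 16.2% of 33469 rat promoter windows of the same length. The Slc17a3 and Slc17a1 windows held neither motif. Windows of 8 of the 9 genes were available, and AGGTCA was absent from the other 7. The letters TATAAA, found in 14.2% of all windows, were in none of the 8, and other forms of the TATA box were not searched. A match is a run of letters and no evidence that a factor binds there, and no match says only that these letters are not in the window.

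The basolateral organic anion carriers differed less. Slc22a6 encodes OAT1, which takes up organic anions such as para-aminohippurate from the blood in exchange for dicarboxylates. It read 1572 and 1705 in the SHR nicotine and SHR saline pools, against 1299 and 1365 in the BN nicotine and BN saline pools. Both SHR pools lay above both BN pools. Slc22a6 was 1.23-fold higher in SHR (log2 ratio 0.30, SE 0.07, adjusted p = 0.00357 with limma).

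Slc22a8 encodes OAT3, the second main anion carrier of that membrane, and its signal was close to level across strains. It read 2378 and 2485 in the SHR nicotine and SHR saline pools, against 2400.2 and 2694 in the BN nicotine and BN saline pools. The strains overlapped, since SHR saline lay above BN nicotine. The log2 ratio was -0.06 (SE 0.06, adjusted p = 0.538 with limma), and it was -0.01 between the nicotine pools and -0.12 between the saline pools.

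Slc22a7 encodes OAT2, an anion carrier also found in liver. Its signal was 160.5 and 167 in the SHR nicotine and SHR saline pools, against 216 and 206 in the BN nicotine and BN saline pools. Both SHR pools lay below both BN pools. Slc22a7 was 1.29-fold lower in SHR (log2 ratio -0.36, SE 0.12, adjusted p = 0.0393 with limma), at -0.43 between the nicotine pools and -0.30 between the saline pools.

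Of the carriers of cations and carnitine, both measured members were higher in SHR. Slc22a5 encodes OCTN2, the sodium-dependent carnitine carrier of the brush border that recovers carnitine from the filtrate. It read 979 and 1149.8 in the SHR nicotine and SHR saline pools, against 699 and 709 in the BN nicotine and BN saline pools. The BN pools were nearly equal and both SHR pools were above them. Slc22a5 was 1.51-fold higher in SHR (log2 ratio 0.59, SE 0.08, adjusted p = 1.72e-05 with limma). The log2 ratio was 0.49 between the nicotine pools and 0.70 between the saline pools, the largest positive ratio among the 8 probe sets under either treatment.

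Slc22a2 encodes OCT2, the basolateral carrier that takes organic cations such as metformin and creatinine into the tubule cell. It read 1765 and 1901 in the SHR nicotine and SHR saline pools, against 1632 and 1549 in the BN nicotine and BN saline pools. It was 1.15-fold higher in SHR (log2 ratio 0.20, SE 0.07, adjusted p = 0.0454 with limma), at 0.11 between the nicotine pools and 0.30 between the saline pools.

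All p-values here rest on the spread between 4 pooled arrays with 1 residual degree of freedom, most of it borrowed from probe sets of similar signal, and not on the spread between animals. Of 14 alternatives, Slc22a5 passed in 13, Slc22a6 in 9, Slc22a7 in 5, Slc17a1 in 3, Slc22a2 in 2 and Slc22a8 in none. Leaving out an array also required dropping treatment from the limma fit, and the calls for Slc17a1, Slc22a2 and Slc22a7 were then lost whichever array was left out (adjusted p from 0.0677 to 0.333); with all 4 arrays and strain as the only factor, Slc17a1 (0.0703) and Slc22a2 (0.0597) were lost already and Slc22a7 (0.0428) was not. Slc22a6 passed with strain as the only factor (adjusted p = 0.0162 with limma) and was lost without SHR saline (0.0798), BN nicotine (0.148) or BN saline (0.0829). Slc22a5 had log2 ratios from 0.47 to 0.71 over the alternatives and missed the threshold with no filter on dim probe sets (adjusted p = 0.381 with limma). Slc17a3 ran from -4.73 to -2.14 and Slc22a13 from -2.69 to -1.46, sizes that follow the floor, and their passing counts are no sign of stability because both entered the test through BN alone.

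**Figure D2:**
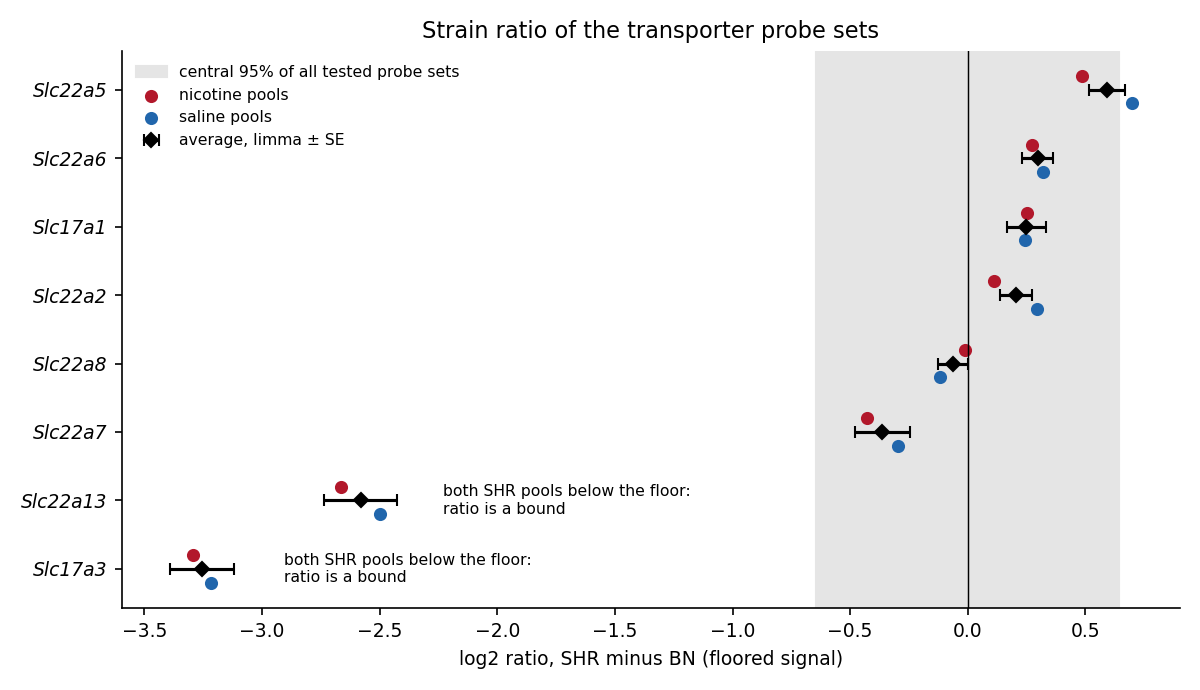
Log2 ratio of SHR minus BN for the 8 transporter probe sets. Diamonds are the limma average with its SE, red points the ratio between the nicotine pools, blue points that between the saline pools, and the grey band spans the central 95% of the 7037 tested probe sets (-0.65 to 0.64). Slc17a3 and Slc22a13 lie at -3.26 and -2.58 as bounds, and the average of Slc22a5 at 0.59 is near the upper edge of the band.

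Other genes on the array with an Slc17a or Slc22a symbol comprised 13 probe sets of 11 genes. Ust5r, described below by its position, has a different kind of symbol and was not counted here. Of the 13 probe sets 6 were tested, 1 was higher and 1 lower in SHR, where 8.67% and 9.42% of all tested probe sets were. The 6 had a median log2 ratio of 0.02. Slc22a24, which encodes the anion exchanger Oat5 in rats, read 365 and 414 in the SHR nicotine and SHR saline pools, against 616 and 726 in the BN nicotine and BN saline pools (log2 ratio -0.78, SE 0.08, adjusted p = 1.20e-06 with limma). Slc22a23, a family member without a settled substrate, read 167 and 194 in the SHR nicotine and SHR saline pools, against 115 and 104 in the BN nicotine and BN saline pools (log2 ratio 0.72, SE 0.14, adjusted p = 0.00123 with limma), while its other probe set stayed below the floor on all arrays. The cation carrier gene Slc22a3 stayed between 20.7 and 23.3 in SHR and between 19.8 and 24.1 in BN, below the floor on all arrays.

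Other carriers of organic ions, sulfate and peptides, 13 of 25 listed genes with a probe set, gave 9 tested probe sets. In SHR 1 was higher, the sulfate and anion exchanger gene Slc26a1 (log2 ratio 0.45), and 2 were lower, the peptide carrier gene Slc15a1 (-0.64) and the dicarboxylate carrier gene Slc13a2 (-0.27). Of all tested probe sets 8.67% were higher and 9.42% lower in SHR. Slc13a3, whose product brings in the dicarboxylates that OAT1 and OAT3 exchange for anions, read 2772 and 2771 in the SHR pools and 2554 and 2411 in the BN pools (log2 ratio 0.16, SE 0.06, adjusted p = 0.0938 with limma).

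Scaffolds and transcription factors of these carriers gave 10 tested probe sets, 3 higher and none lower in SHR. Of all tested probe sets 8.67% were higher and 9.42% lower. Without overlap between the strains, 3 of the 10 were higher and 3 lower in SHR, so the list had no clear direction. Pdzk1, a scaffold that holds apical carriers such as URAT1 and OCTN2, read 2534 and 2498 in SHR and 2090.1 and 2048 in BN (log2 ratio 0.28, adjusted p = 0.00384 with limma). Pdzk1ip1, a membrane protein that binds it, had a log2 ratio of 0.32, and the xenobiotic receptor gene Nr1i2 had 0.74. Nr1i2 was dim and entered the test through its SHR pools alone, with signals of 92.9 under nicotine and 88.3 under saline. Its BN signals were 52.7 under nicotine and 55.9 under saline, not far above the floor. Such a probe set could hardly be called lower in SHR, so its call adds little to the count of 3. Both Hnf4a probe sets had ratios near 0, at 0.01 and -0.04, with adjusted p of 0.973 and 0.81 in limma.

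Of 8 tested probe sets for enzymes of urate and purines, 3 were lower and none higher in SHR, where 9.42% and 8.67% of all tested probe sets were. Xdh, which makes urate, read 420.0 and 393 in SHR and 663 and 648 in BN (log2 ratio -0.69, SE 0.08, adjusted p = 5.77e-06 with limma). The guanine deaminase gene Gda had a log2 ratio of -0.49 in one probe set, while its other probe set, at 0.17, did not pass. The purine salvage gene Hprt1 had -0.30. Of 10 tested probe sets for carnitine enzymes, 1 was higher and 1 lower. Tmlhe, the first enzyme of carnitine synthesis, read 1184 and 1217 in SHR and 657 and 661 in BN (log2 ratio 0.87, SE 0.07, adjusted p = 7.40e-08 with limma), and Aldh9a1, a later enzyme of the same route, had a log2 ratio of -0.50. The medians of the carriers, scaffold, purine and carnitine lists were 0.10, -0.03, -0.19 and -0.14.

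The proximal tubule markers had a median of 0.13. The largest ratios past the test belonged to Slc34a1, the main phosphate carrier of the brush border (0.89 and 0.36 in its 2 probe sets), Anpep, a brush border peptidase (0.75), and Cubn, an endocytic receptor (-0.57). The tested markers ran from -0.57 to 0.89, and the average ratios of Slc17a3 and Slc22a13 lay below that range while those of the other 6 transporters lay inside it.

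**Figure D3:**
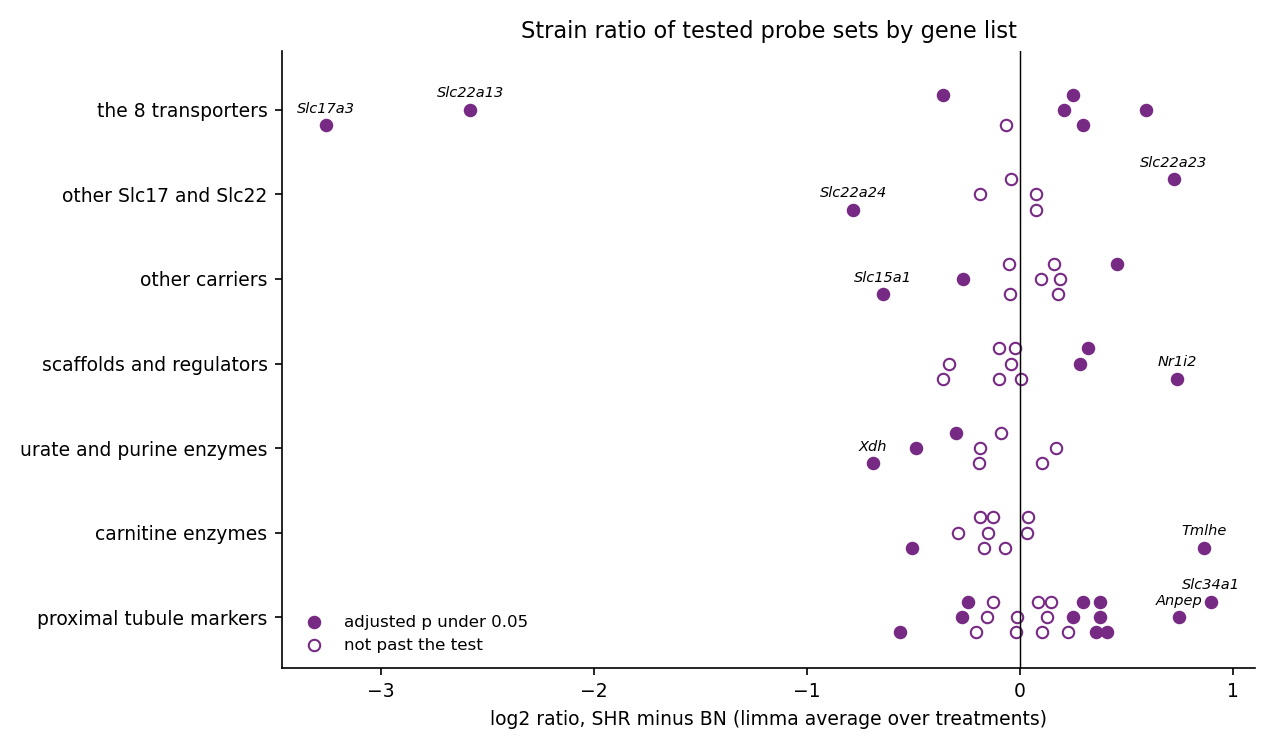
Limma log2 ratio of SHR minus BN for every tested probe set of each list, with filled points for adjusted p under 0.05 and open points for the rest; points are spread vertically to avoid overlap, and those beyond 0.6 in size carry their gene name. Slc17a3 and Slc22a13 lie below -2.5, and every other probe set drawn lies between -0.78 and 0.89.

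The position of the genes was read from the RefSeq gene order. On chromosome 17, Slc17a4, Slc17a1, Slc17a3 and Slc17a2 follow each other, and Slc17a1 and Slc17a3 were the tested genes among the 8 protein-coding neighbours on each side. Of these 2, Slc17a1 was higher and Slc17a3 lower in SHR, as above. On chromosome 8, Slc22a13 lies between Slc22a14 and the genes LOC120094289 and Slc22a13l1, of which none had a tested probe set. The 4 tested neighbours of Slc22a13, Golga4, Ctdspl, Oxsr1 and Myd88, had log2 ratios between -0.05 and 0.11, none past the test. On chromosome 1, Slc22a24, Ust5r, Slc22a25, Slc22a8 and Slc22a6 were the tested genes of 1 stretch, in this order, and had log2 ratios of -0.78, 0.62, -0.04, -0.06 and 0.30. Ust5r read 223 and 221 in the SHR nicotine and SHR saline pools, against 157 and 133 in the BN nicotine and BN saline pools (adjusted p = 0.00129 with limma), so genes of the stretch went in both directions. Near Slc22a2, elsewhere on chromosome 1, both Igf2r probe sets were higher in SHR (0.31 and 0.45, adjusted p = 0.00449 and 0.000179 with limma), as Slc22a2 was. Its other tested neighbours, Tcp1 (0.05) and Mrpl18 (-0.06), did not pass. No tested neighbour of Slc22a5 or Slc22a7 passed.

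**Figure D4:**
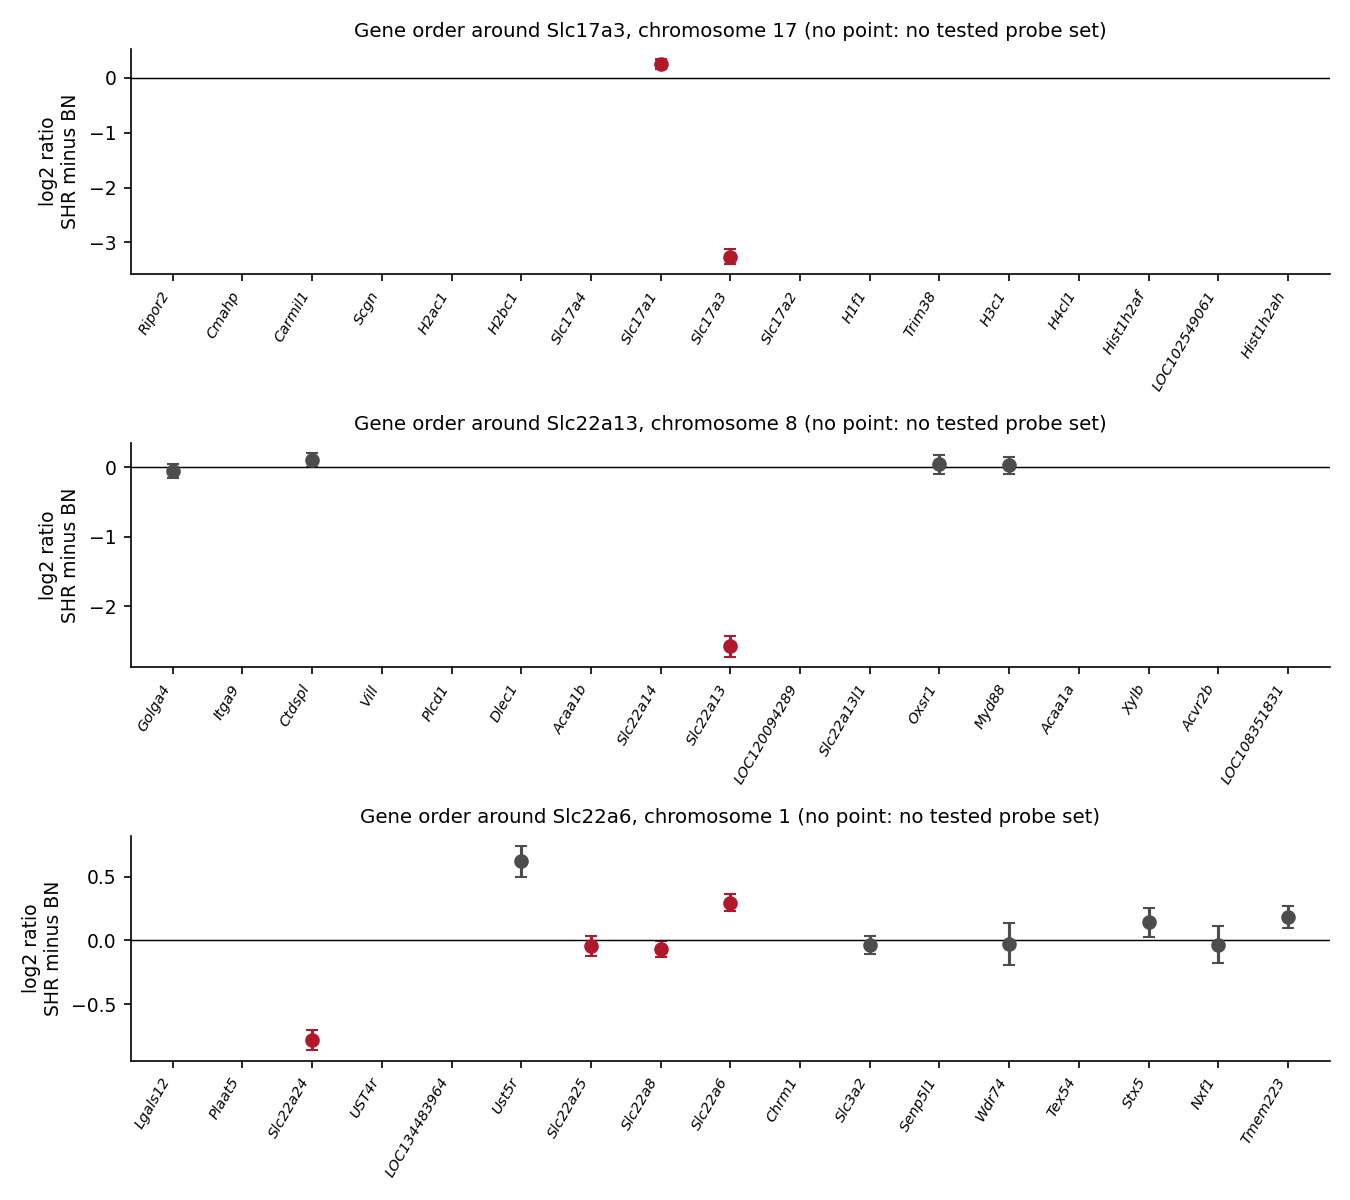
Limma log2 ratio of SHR minus BN, with its SE, for tested probe sets of the 8 protein-coding genes on each side of Slc17a3, Slc22a13 and Slc22a6 in their order on the chromosome (no distances shown); red points are genes with Slc17 or Slc22 names and grey points other genes. The low ratio of Slc17a3 (-3.26) was not shared by its only tested neighbour, Slc17a1, nor that of Slc22a13 (-2.58) by its tested neighbours.

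Genes with the most similar pattern were sought for each of the 7 probe sets past the strain test, by the root mean square difference of centred log2 values over the 4 arrays, which is a description from 4 values that share their arrays. Slc17a3 was nearest to Klk1c4, Rbp4 and Ythdf2, at 0.07, 0.15 and 0.20 log2 units. In SHR, Klk1c4 and Rbp4 lay below the floor like Slc17a3, and RT1-Bb and Dapk2 like Slc22a13, so for these the SHR side of the likeness was set by the floor. Rbp4, the carrier of retinol, read 35.6 and 16.8 in SHR and 530 and 515 in BN. Slc22a13 was nearest to Wdr90, RT1-Bb and Dapk2, at 0.05, 0.10 and 0.15. The nearest to Slc22a5 were Plbd1, Scrn3 and Gtpbp4, and the nearest to Slc22a6 were Cbx6, Cdk13 and Dnaja1. The nearest to Slc22a7 were Klf4, C2h4orf3 and Fkbp8, those to Slc17a1 were Chpf, Iqsec1 and Slc39a14, and those to Slc22a2 were Zfp180, Mlec and Pdia6. These 15 lay within 0.0401 log2 units.

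Nicotine before birth was then compared with saline, first within each strain, where each side is 1 pool and no test can be made. In SHR all 6 transporters above the floor read lower in the nicotine pool, by small amounts. Slc22a5 had the largest log2 ratio of nicotine against saline at -0.23, with the values 979 and 1149.8 given above. It was followed by Slc22a6 at -0.12, Slc22a2 at -0.11, Slc17a1 at -0.10, and Slc22a8 and Slc22a7, both at -0.06. Their median was -0.10, against -0.01 over the 7081 probe sets measured in SHR, of which 51.7% read lower. None of the 6 was 1.5-fold apart, where 1.98% of all measured probe sets were, and the SD of the ratio over all measured probe sets was 0.21. All 6 ratios come from the same pair of pools, so they are not 6 separate observations of nicotine. The 6 measured probe sets of other genes with Slc17a or Slc22a symbols also all read lower in the SHR nicotine pool, from -0.03 to -0.44. Ust5r, which that list leaves out by its symbol, read 223 in the SHR nicotine pool and 221 in the SHR saline pool. Of the 21 proximal tubule marker probe sets 12 read lower.

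In BN the 8 transporters were divided, with 4 lower and 4 higher in the nicotine pool, where 48.9% of the 6936 measured probe sets were lower. Slc22a13 had the largest positive log2 ratio, 0.17, and Slc22a8 the largest negative one, -0.17. Slc17a3 had 0.08, Slc22a2 and Slc22a7 both 0.07, Slc22a5 -0.02, Slc22a6 -0.07 and Slc17a1 -0.11. None was 1.5-fold apart, where 1.63% of measured probe sets were, and the SD over those was 0.20. Slc17a3 and Slc22a13 could be read for nicotine in BN alone, because both SHR pools were below the floor.

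Averaged over strains, none of the 8 transporters passed for nicotine against saline. The limma test called 0% of 6924 probe sets, with 376 at an unadjusted p under 0.05, and 0 of the 8 members had an unadjusted p under 0.05. The smallest among them was that of Slc22a8, with a log2 ratio of -0.11 (SE 0.06, unadjusted p = 0.0901, adjusted p = 0.971). Slc22a5 had -0.13 (SE 0.08, adjusted p = 0.997), Slc17a1 -0.10, Slc22a6 -0.09, Slc22a2 -0.02, Slc22a7 0.01, Slc17a3 0.04 and Slc22a13 0.08. The number of arrays limits this test, and a p that misses the threshold does not show that nicotine had no effect on these carriers.

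Among the measured probe sets of the carrier, scaffold, purine and carnitine lists, 3 were past 1.5-fold in a strain. In SHR these lists had 10, 9, 8 and 10 measured probe sets, and 1 scaffold probe set was past it. In BN they had 9, 9, 7 and 10, and 2 carrier probe sets were past it. Of all measured probe sets 1.98% were past it in SHR and 1.63% in BN. Nherf2, a scaffold relative of Nherf1, read 103 against 67.0 for nicotine against saline in SHR, where its other probe set read 88.8 against 71.9. In BN, Slco1a4 read 62.2 against 101.5, while its other probe set stayed below the floor on all arrays. Slco2b1, another organic anion carrier gene, read 89.6 against 55.8 in BN, where its other probe set was nearly level at 73.3 against 70.4. Averaged over strains in limma, adjusted p was 0.998 for the Nherf2 and Slco1a4 probe sets past 1.5-fold. Neither Slco2b1 probe set was bright enough to be tested.

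**Figure D5:**
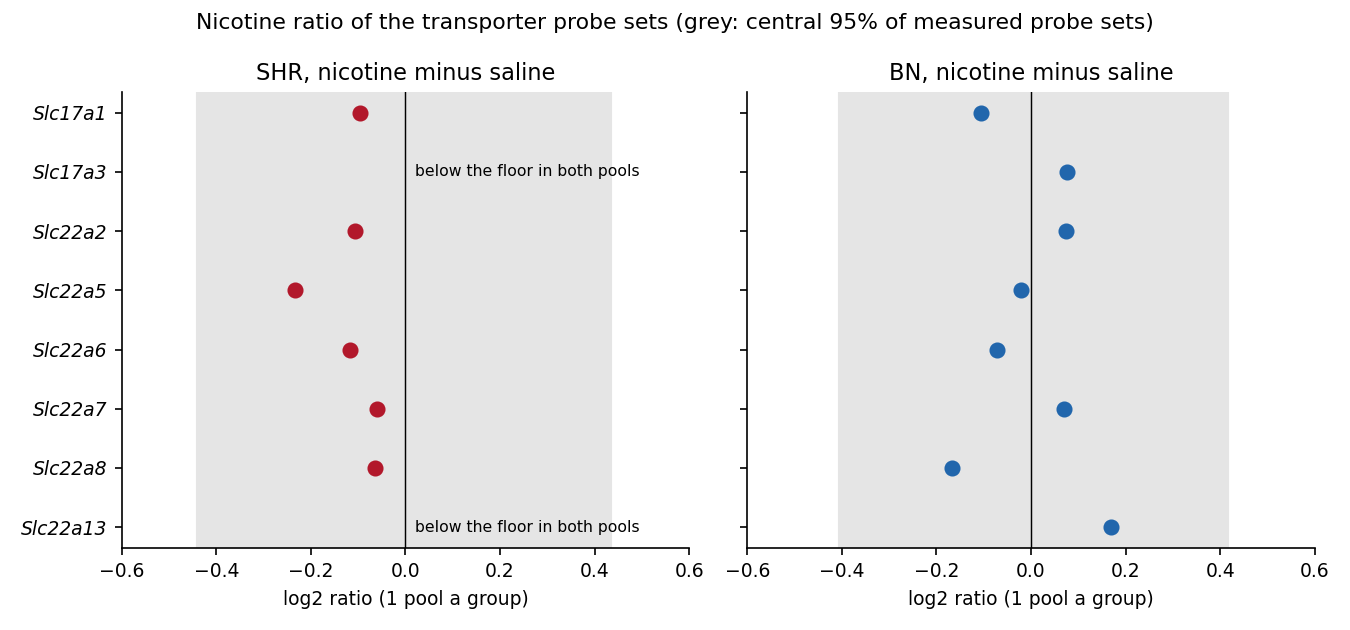
Log2 ratio of nicotine minus saline for the 8 transporter probe sets in SHR (left) and BN (right), 1 pool per group, with the central 95% of all measured probe sets in grey (-0.44 to 0.43 in SHR and -0.41 to 0.42 in BN). All points lie inside the band; the 6 in SHR lie below 0 and the 8 in BN lie on both sides of it.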

How the data were processed

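Kidney RNA pools of 4 groups were hybridised to 1 Affymetrix RAE-230A array each. The deposited intensity values are linear signals; MAS5 is the software the submitters' processing notes name, and no source used here gives its settings or scaling. The 57 control probe sets were left out, and gene symbols of the platform annotation, which can be old, were updated through the gene identifier to RefSeq; 12783 probe sets had 1 symbol, 312 several and 2771 none. Signals below 44.5, the 40th percentile, were raised to that floor before log2. Strain and nicotine were fitted together with limma 3.58.1 in R 4.3.3 (lmFit, eBayes with intensity trend, Benjamini-Hochberg at 0.05) on probe sets whose higher group mean reached 89.0, 2 times the floor. The fit was also run on simulated arrays with independent noise, where known changes were put only on probe sets averaging at least 4 times the floor. That setting leaves out probe sets below the floor in 1 strain, such as Slc17a3 and Slc22a13, and no result here rests on it. A probe set counted as measured within a strain if 1 of its 2 signals reached 89.0. The members and lists were chosen with earlier results of these data known. Named were all members, up to 3 list genes past the strain test by size, up to 2 past 1.5-fold for nicotine, and the 3 nearest patterns of each member called. Genes named outside this rule (Slc22a3, Slc13a3, Hnf4a, Ptprc and chromosomal neighbours) and the 2 promoter motifs were chosen after values or sequences were seen. Alternatives changed the floor, normalisation, filter, variance trend, probe sets per gene and factors, or left out an array, which leaves room for 1 factor only.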

Additional observations from a re-analysis of the deposited data

Results flagged for a closer look

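For 2 transporter genes the nicotine pool lay below the saline pool in SHR and above it in BN, with 1 pool per group. The nicotine log2 ratio of Slc22a2 was -0.11 in SHR and 0.07 in BN, a difference of -0.18. That of Slc22a7 was -0.06 in SHR and 0.07 in BN, a difference of -0.13. These differences were not tested, since 4 arrays leave no residual for an interaction, and both were smaller than the SD of 0.28 that this difference had over the 6608 probe sets measured in both strains.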

How the results depend on the processing

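No direction called for a transporter between strains was reversed in 14 alternatives, but most of these could not reverse one. Changing the filter, the trend, the probe sets per gene or the factors leaves the ratio itself as it was. The strains did not overlap for any called transporter, so leaving out an array could not turn its sign. Of the 8 probe sets, 7 passed as reported; 4 passed with the floor at the 60th percentile, with quantile normalization and with cyclic loess, 3 with no intensity trend, 5 with strain as the only factor, and 3 to 4 when an array was left out as well. With no filter on dim probe sets 0 passed (limma; 1719 of all probe sets had an unadjusted p under 0.05); the 15866 probe sets then tested include those raised to the floor on every array, which have no spread. Over all probe sets the strain count of 1273 became 744 with quantile normalization, 830 with cyclic loess, 612 with no intensity trend, 0 with no filter and 373 to 609 without 1 array, where the lone pool of a strain was assumed to vary like the others. For nicotine, 5 probe sets passed with a filter at 4 times the floor (Klk1b3, Klf9, Kiaa1191, Snrnp200 and C1qbp, named after their values were seen), none of them a transporter of either family. The numbers of transporters lower under nicotine, 6 of 6 in SHR and 4 of 8 in BN, were the same in all 5 alternatives tried on them. Moving the floor left each of these ratios unchanged. All 5 used the same pools, so they cannot show whether the pattern would recur in other animals. Each group was 1 pool, so there were no replicates to pair beyond fitting strain and treatment together, as the main fit did. Signals below the floor give bounds only, so the size of the Slc17a3 and Slc22a13 differences is not fixed by these arrays.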
